A study of Mus musculus with 2 samples.

Results

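The 35 genes described here are interferon-stimulated genes, the set a cell switches on when type I, II or III interferon reaches its receptors. They were chosen by name, and each of the 35 symbols matched 1 of the 31053 genes in the count matrices. The study dissociated the whole uterus of mice on gestational day 4 and made 1 10x Genomics 3′ single-cell library from Mettl14 f/f mice, which carry the floxed gene, and 1 from Mettl14 d/d mice, in which it is deleted. Mettl14 encodes the RNA-binding partner of the methyltransferase that writes N6-methyladenosine on RNA. The labels do not name the Cre driver, do not say how many animals went into a library and give no mouse age. With 1 library per genotype there is no replicate, so no difference below was tested between genotypes. All 95% intervals cover the counting error of unique molecular identifiers (UMIs) only, and UMIs of a library are not independent animals.

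Interferons bind paired cell-surface receptors that activate JAK kinases. Type I and III signals act through a complex with STAT2 and IRF9 that binds the interferon-stimulated response element (ISRE), and type II signals act through the gamma-activated site (GAS). The induced proteins block viral replication, disrupt vacuoles that hold parasites and bacteria, and feed back on the pathway itself. In the uterus, a type I interferon made by the epithelium serves mucosal defence, and interferon-gamma from natural killer cells acts on vessels in early pregnancy.

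To show what the members share in sequence, RefSeq promoters on GRCm38.p6 were searched from 250 bases before to 50 bases after each start site for GAAANNGAAA, an ISRE core, and TTCNNNGAA, a GAS core, on both strands, with overlaps between the motifs allowed. The search covered 28 of the 35 members and left out Usp18, Oas2, Zbp1, Rtp4, Parp14, Iigp1 and Gbp4. The motif shares therefore say nothing about those genes, among them Iigp1, the member with the most UMIs in d/d endothelium. An ISRE core lay in 18 of the 28, a GAS core in 9, both in 6 and neither in 7. Of the 32 promoters of these members 56.2% held the ISRE core and 28.1% the GAS core, against 3.44% and 8.30% of all 32851 promoters. Below, the 200 bases before the start of 6 members that carry the results are printed from 5′ to 3′ on the gene's own strand, lower case with bases of either core in capitals. They were chosen to show an ISRE array (Isg15), a near-duplicate pair (Ifit3 and Ifit3b), overlapping cores (Bst2), separate ISRE and GAS cores (Igtp) and a GAS core alone (Irf1).
Isg15, chr4:156200819-156201018, minus strand: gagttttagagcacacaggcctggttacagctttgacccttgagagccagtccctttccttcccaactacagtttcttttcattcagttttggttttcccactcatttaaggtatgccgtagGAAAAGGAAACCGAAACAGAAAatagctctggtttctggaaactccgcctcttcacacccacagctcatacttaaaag
Ifit3, chr19:34583329-34583528, plus strand: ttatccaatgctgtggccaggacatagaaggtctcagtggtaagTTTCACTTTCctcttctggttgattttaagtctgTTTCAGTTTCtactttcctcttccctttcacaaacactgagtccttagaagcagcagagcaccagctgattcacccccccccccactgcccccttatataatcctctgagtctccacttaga
Ifit3b, chr19:34607757-34607956, plus strand: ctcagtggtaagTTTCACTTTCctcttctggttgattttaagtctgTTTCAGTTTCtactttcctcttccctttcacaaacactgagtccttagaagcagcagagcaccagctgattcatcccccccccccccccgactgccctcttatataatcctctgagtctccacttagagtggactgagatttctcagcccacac
Bst2, chr8:71537473-71537672, minus strand: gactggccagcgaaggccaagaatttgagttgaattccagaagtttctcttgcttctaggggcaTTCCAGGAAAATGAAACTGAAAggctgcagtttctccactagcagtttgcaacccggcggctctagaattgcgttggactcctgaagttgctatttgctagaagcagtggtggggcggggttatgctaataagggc
Igtp, chr11:58199356-58199555, plus strand: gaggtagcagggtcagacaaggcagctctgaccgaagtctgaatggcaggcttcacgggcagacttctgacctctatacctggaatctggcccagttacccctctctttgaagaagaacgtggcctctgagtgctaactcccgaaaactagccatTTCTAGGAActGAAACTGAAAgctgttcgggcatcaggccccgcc
Irf1, chr11:53769814-53770013, plus strand: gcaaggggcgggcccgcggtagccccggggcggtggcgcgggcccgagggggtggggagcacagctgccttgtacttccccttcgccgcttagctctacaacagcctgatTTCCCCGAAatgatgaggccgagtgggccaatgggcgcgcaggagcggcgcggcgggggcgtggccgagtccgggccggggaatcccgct
Counting the start site as the boundary, Isg15 had ISRE cores starting at -78, -72 and -66, and Ifit3 at -156 and -122. In Bst2 a GAS core at -136 ran into ISRE cores at -130 and -124, in Igtp the GAS core lay at -45 and the ISRE core at -34, and Irf1 had its GAS core at -90. The Ifit3 and Ifit3b windows aligned with 166 identical bases, 2 mismatches and 64 gapped positions. The matches describe letters in a window and show no binding.

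The libraries held 8164 f/f and 6661 d/d cell barcodes with 55080123 and 44745031 UMIs. After cells with fewer than 1000 UMIs or 500 genes, more than 20% mitochondrial UMIs or a doublet call were removed, 7095 and 5977 cells remained, with medians of 6085 and 5217 UMIs. Mettl14 checks the labels: over all kept cells it had 15.5 UMIs per 1000000 UMIs counted (CPM; 14.4–16.6) in f/f and 5.53 (4.83–6.31) in d/d. It was lower in d/d stroma (14.6 against 2.37 CPM), epithelium (19.8 against 4.79), smooth muscle (19.3 against 2.53) and pericytes (13.3 against 4.44), but not in blood endothelium, at 18.4 and 18.3 CPM. Macrophages or monocytes had 10 Mettl14 UMIs in each library, in 222 f/f cells (median 2014 UMIs) and 284 d/d cells (median 4505). These equal counts are therefore not equal levels. A 3′ tag may lie outside the deleted part of the gene, and where the deletion lies is not given in the labels, so the tags that remain do not measure intact transcript.

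Cells were clustered and named from marker genes, and 6 classes with over 100 cells in both libraries were set for comparison: stroma (4728 f/f and 1708 d/d cells), epithelium (177 and 157), smooth muscle (448 and 1478), pericytes (381 and 1199), blood endothelium (497 and 604) and macrophages or monocytes (222 and 284). Dendritic cells (177 and 174) also passed that number but were not among the classes set. The classes were rebuilt here and are not the study's own. Among the 10 leading genes of cluster 8, which held 62 of the f/f pericytes and 541 of the d/d ones, were 1 pericyte marker (Notch3) and 1 smooth muscle marker (Myh11) of the lists used, and its mean marker score was 4.10 for pericytes but 2.19 for smooth muscle. The stroma and the epithelium came from different clusters in each library: clusters 0 and 1 held 2074 and 1929 of the f/f stromal cells, while cluster 3 held 1059 of the d/d ones. In the f/f epithelium, 104 cells were glandular-like and 73 luminal-like, whereas 156 of the 157 d/d epithelial cells fell in 2 sub-clusters of their own. A further epithelial sub-cluster, 76 f/f cells with 3 d/d ones, was led by stromal genes and set aside. Median depth differed most in the epithelium (9399 UMIs a cell in f/f, 18120 in d/d) and in macrophages (2014 and 4505). Markers of other classes also differed: the summed stromal markers (12 genes, none at 0) stood in macrophages at 40.8% of the level in f/f stroma but 3.13% in d/d, and in pericytes at 59.6% and 26.8%. Their part in the results below was not tested.

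Blood endothelium carried the highest interferon-stimulated signal of the 6 classes in both libraries, and d/d cells had more of it in each class, though barely so in smooth muscle. The 35 members summed to 2297 CPM (2254–2340) in f/f endothelium and 4226 (4168–4285) in d/d, a d/d to f/f ratio of 1.84 (1.80–1.88). In epithelium the sums were 1189 (1143–1236) and 2260 CPM (2216–2303), a ratio of 1.90 (1.82–1.98). Pericytes had 850 (811–890) and 1531 CPM (1497–1565), a ratio of 1.80 (1.71–1.90). The d/d level in these vessel and lining cells was thus a little under 2-fold the f/f level. Stroma summed to 594 (586–602) and 1003 CPM (986–1020), a ratio of 1.69 (1.65–1.73). Macrophages or monocytes had 1245 (1161–1333) and 1742 CPM (1673–1813), a ratio of 1.40 (1.29–1.52). Their f/f value joined cluster 9, at 1557 CPM (1430–1692), with 48 cells of cluster 18 at 879, while all d/d macrophages lay in cluster 9. Smooth muscle stood apart with 587 (554–622) and 638 CPM (621–655), a ratio of 1.09 (1.02–1.16). The order of the classes was therefore led by endothelium, with smooth muscle and stroma lowest in f/f at levels whose intervals overlapped, as did those of f/f epithelium and macrophages. Per gene, blood endothelium was the highest class for 21 of 35 members in f/f and 22 in d/d, epithelium for 7 and 7, and macrophages for 6 and 5.

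**Figure D1:**
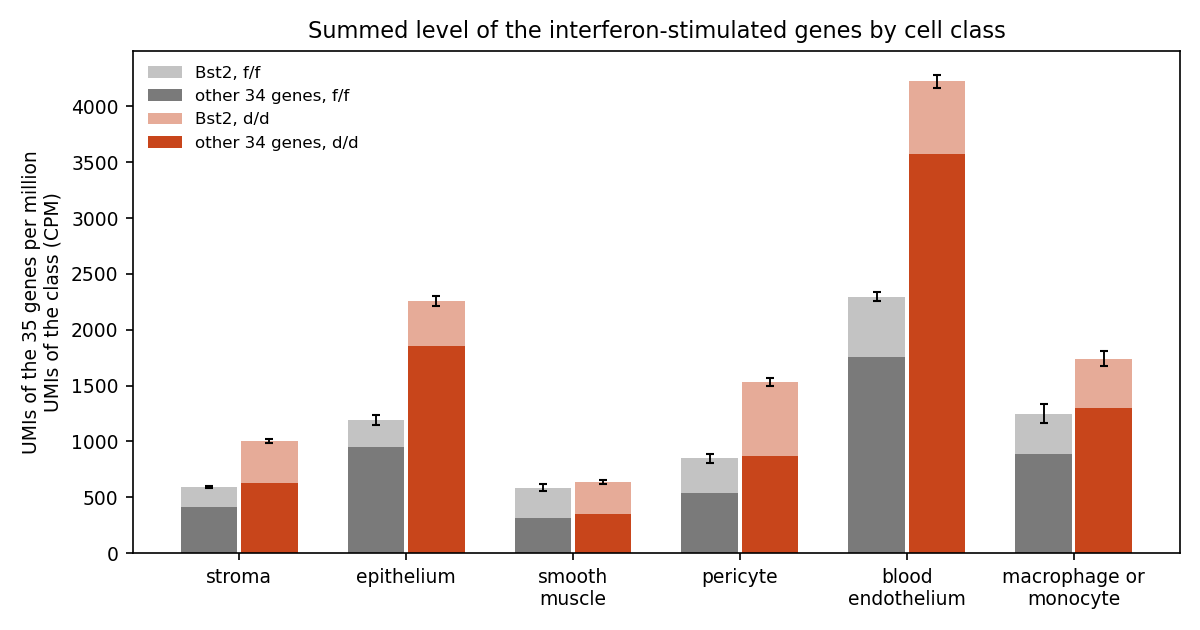
Stacked bars of the summed CPM of the 35 members in each of 6 cell classes of the f/f (grey) and d/d (orange) libraries, 1 library each, with Bst2 as the pale upper part and 95% counting intervals on the sum. Blood endothelium stands highest in both libraries (2297 and 4226 CPM) and smooth muscle shows bars of nearly equal height (587 and 638 CPM).

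A single gene, Bst2, made up a large share of these sums. It encodes tetherin, which holds budding virus at the cell surface, and gave between 19.97% (epithelium) and 45.7% (smooth muscle) of the member UMIs in f/f. With Bst2 left out the d/d to f/f ratio was 2.04 in endothelium, 1.95 in epithelium, 1.63 in pericytes, 1.51 in stroma, 1.47 in macrophages and 1.09 in smooth muscle. All 6 ratios stayed above 1 without it, but the smooth muscle interval (0.9997–1.19) included 1.

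A member counted as higher or lower where its CPM differed by at least 1.5-fold with at least 50 UMIs in the library that held more, among members with at least 20 UMIs over both. In epithelium 22 of 33 members were higher in d/d and 2 lower, where 11.9% of all 10758 genes were higher and 14.7% lower. In blood endothelium 18 of 34 were higher and none lower, against 8.63% and 8.7% of 11574 genes. In stroma 12 of 34 were higher and 1 lower, against 11.9% and 17.6% of 13893 genes. These classes held a larger share of higher members than the background of all genes. Pericytes had 6 of 30 higher and 2 lower (10.6% and 14.5% of 11399 genes), and macrophages or monocytes 7 of 31 higher and 1 lower (10.3% and 8.18% of 8043 genes). Under TMM scaling 13 macrophage members were higher and none lower. Smooth muscle had 5 of 26 higher and 1 lower (8.96% and 7.09% of 11666 genes). The median log2 difference over tested members was 0.95 in epithelium, 0.60 in endothelium, 0.42 in stroma, 0.30 in macrophages, 0.14 in smooth muscle and -0.03 in pericytes, beside -0.14, -0.05, -0.12, -0.32, -0.15 and -0.22 over all genes tested. The pericyte median depends on the clusters counted: in cluster 6 alone it was 0.57. Across the 6 classes Isg15 and Irf1 were higher in all of them, Rtp4, Iigp1 and Irf7 in 4, and Oas2, Oas3, Oasl2, Ddx58, Ifi35, Gbp2 and Gbp5 in none.

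**Figure D2:**
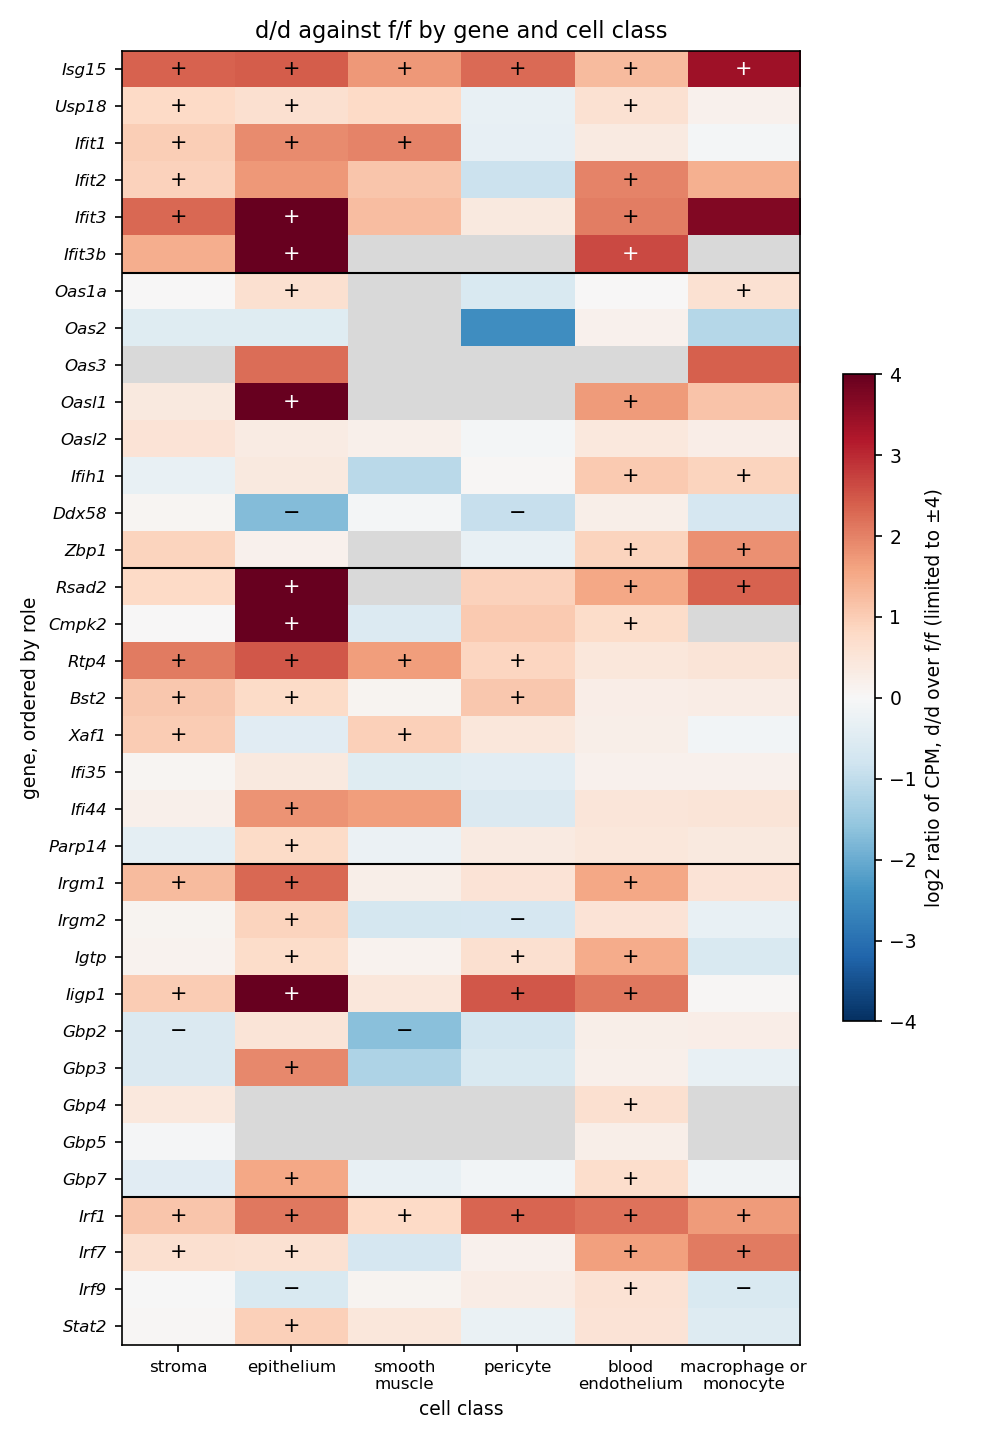
Log2 ratio of d/d to f/f CPM for each of the 35 members (rows) in 6 cell classes (columns), with a plus for members called higher, a minus for those called lower and grey for fewer than 20 UMIs, the colours ending at 4 in both directions and Usp18 in smooth muscle drawn at its lower bound because f/f had 0 UMIs. Isg15 and Irf1 carry a plus in all 6 columns, and epithelium holds the most plus signs, 22.

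The ubiquitin-like modifier and IFIT genes had the largest d/d to f/f ratio of the 5 roles in stroma, epithelium, smooth muscle, pericytes and macrophages. Their sum was 4.50-fold higher in d/d epithelium (3.95–5.15), 3.50-fold in macrophages (2.40–5.27), 3.22-fold in stroma (3.0–3.46), 3.21-fold in smooth muscle (1.96–5.60), 2.35-fold in pericytes (2.02–2.75) and 2.23-fold in endothelium (2.05–2.43). Isg15, a ubiquitin-like protein joined to other proteins during infection, was the leading member. In stroma it had 14.4 f/f CPM against 74.3 in d/d (490 and 970 UMIs, log2 2.36, 2.20–2.52), and in epithelium 47.5 and 257 (2.44, 2.14–2.74). Pericytes had 35.2 and 171 CPM (2.28, 1.93–2.64), and macrophages 9.09 and 94.8 (6 and 131 UMIs, 3.38, 2.22–4.86). Endothelium had 83.1 and 199 CPM (1.26, 1.09–1.43), and smooth muscle was lowest at 3.05 and 10.2 CPM (1.75, 0.57–3.23). In d/d cells Isg15 was thus highest in epithelium and endothelium, while in f/f endothelium led among whole classes. The f/f epithelial value joined glandular-like cells at 8.91 CPM with luminal-like ones at 88.8, the second near the endothelial level. Usp18, the protease that removes ISG15 and damps the type I receptor, was higher in d/d stroma (6.57 and 11.3 CPM), epithelium (13.8 and 21.8) and endothelium (12.9 and 19.7). That endothelial call was lost, at log2 0.57, when totals left out mitochondrial and ribosomal genes. The epithelial Usp18 call depended on the f/f sub-type, at log2 4.61 against glandular-like cells and -0.35 against luminal-like ones. In smooth muscle Usp18 had 0 f/f and 23 d/d UMIs, at least 1.73-fold higher against a floor of 3 counts over the class.

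IFIT proteins bind viral RNA ends, and their genes lie side by side on chromosome 19. Ifit1 had 50.7 CPM in f/f and 188 in d/d epithelium (1.89, 1.60–2.19) and 10.8 and 21.4 in stroma (0.99, 0.76–1.22). The difference for Ifit1 was 0.35 in endothelium and -0.33 in pericytes, neither past the fold used. Ifit3 was near absent from f/f epithelium, with 1 UMI, and had 138 UMIs in d/d (0.461 and 30.0 CPM; log2 6.03, 3.52–11.34). Ifit3b had 1 and 60 UMIs there. In endothelium Ifit3 had 9.94 and 41.4 CPM (2.06, 1.59–2.55), Ifit3b 1.90 and 11.8 (2.63, 1.60–3.83) and Ifit2 8.46 and 33.6 (1.99, 1.48–2.53). Stroma had 2.18 and 10.8 CPM of Ifit3 (2.31, 1.89–2.73) and 6.13 and 11.7 of Ifit2 (0.93, 0.62–1.24). Within endothelium, then, Ifit2 and both Ifit3 copies had larger differences than Ifit1. How reads that fit both Ifit3 and Ifit3b were counted is not stated, so the split between those copies is uncertain, as it is within the Oas and Gbp families.

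The nucleic acid sensors and OAS enzymes had the smallest ratio of the 5 roles in stroma, epithelium and pericytes. Their sum had a d/d to f/f ratio of 1.44 (1.33–1.56) in endothelium, 1.35 (1.11–1.66) in macrophages and 1.18 (1.09–1.28) in stroma. It was 0.92 (0.70–1.23) in smooth muscle, 0.89 (0.81–0.97) in epithelium and 0.76 (0.64–0.92) in pericytes. The pericyte value joined cluster 6 with cluster 8, which held 62 f/f but 541 d/d cells. In cluster 6 alone the members with at least 20 UMIs differed in both directions. Their log2 differences were 0.62 (Oasl2), 0.52 (Ifih1), 0.07 (Oas1a), -0.60 (Ddx58) and -1.87 (Oas2). The epithelial value joined members that differed in opposite directions, and f/f sub-types with different levels. Oasl1, an OAS-like protein that restrains Irf7 translation, had 2.31 CPM in f/f and 50.1 in d/d epithelium (5 and 230 UMIs, 4.44, 3.20–6.08). Ddx58, which encodes the RNA sensor RIG-I, had 180 CPM in f/f and 54.2 in d/d (-1.73, -1.97 to -1.50). Against glandular-like and luminal-like f/f cells in turn, the log2 difference was 0.15 and -2.57 for Ddx58 and 2.45 and -0.72 for Zbp1. It was 1.15 and -0.13 for Ifih1 and 0.91 and -1.24 for Oas2, while Oasl1, Oasl2, Oas1a and Oas3 did not change direction. Ddx58 was also lower in d/d pericytes, at 28.0 and 14.9 CPM (-0.92, -1.42 to -0.40). Ifih1, which encodes the related sensor MDA5, was higher in d/d endothelium (21.2 and 43.7 CPM, 1.05, 0.70–1.41) and macrophages (27.3 and 50.7, 0.89, 0.13–1.73). Zbp1, a sensor of Z-form nucleic acid that can start necroptosis, followed the same classes, with 19.5 and 36.3 CPM in endothelium (0.90, 0.53–1.28) and 12.1 and 42.7 in macrophages (1.82, 0.75–3.09). The 2 RNA helicases therefore differed in direction by class. Oas1a was higher in d/d epithelium (16.6 and 26.1 CPM, 0.65, 0.11–1.23) and macrophages (24.2 and 36.9, 0.61, -0.23 to 1.52), and the macrophage call was lost, at 0.49, with totals that left out mitochondrial and ribosomal genes. Oasl2, at 88.2 and 119 CPM the most counted of the 8 in endothelium (0.43, 0.25–0.62), was past the fold in no class with the totals used. Under TMM scaling it was called higher in stroma (0.65) and macrophages (0.59), and it was also called within cluster 5 of the stroma and cluster 6 of the pericytes (0.70 and 0.62). Oas2 and Oas3 were called in no class, with Oas3 between 0 and 30 UMIs per class and library.

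Among the other antiviral effectors, Rsad2 and Cmpk2 lie next to each other on chromosome 12 and act in one pathway, since CMPK2 supplies the nucleotide that viperin, the Rsad2 product, turns into a chain terminator. Endothelium held the most Rsad2, with 55.4 f/f CPM against 164 in d/d (1.56, 1.36–1.77), and had 26.4 and 44.3 CPM of Cmpk2 (0.75, 0.42–1.08). In epithelium Rsad2 had 2 f/f and 115 d/d UMIs (0.922 and 25.04 CPM, 4.76, 2.88–7.83), and Cmpk2 had 1 and 108 (0.461 and 23.5 CPM, 5.67, 3.16–10.99). Macrophages had 7.57 and 39.1 CPM of Rsad2 (2.37, 1.06–4.05). Both genes were near the detection limit in f/f epithelium and countable in d/d.

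Rtp4, a chaperone-like protein named for taste and odour receptors, was higher in d/d epithelium (35.04 and 194 CPM, 2.47, 2.13–2.83), stroma (9.05 and 38.1, 2.07, 1.87–2.28), smooth muscle (3.55 and 11.3, 1.66, 0.57–3.01) and pericytes (14.3 and 26.0, 0.87, 0.29–1.49). Bst2 was higher in d/d stroma (179 and 378 CPM, 1.08, 1.02–1.13) and pericytes (315 and 659, 1.07, 0.95–1.19) and epithelium (237 and 408, 0.78, 0.64–0.92). It differed little in endothelium (542 and 654 CPM, 0.27, 0.19–0.35), macrophages (360 and 444, 0.30, 0.08–0.52) and smooth muscle (268 and 290, 0.12, -0.02 to 0.25). Under TMM scaling the macrophage difference in Bst2 was 0.61 and past the fold. Xaf1, a partner of an apoptosis inhibitor, was higher in d/d stroma (18.7 and 37.7 CPM, 1.01, 0.83–1.18) and smooth muscle (9.14 and 17.7, 0.95, 0.24–1.74), while epithelium had 135 and 99.1 CPM (-0.44, -0.66 to -0.23). Ifi44 was higher in d/d epithelium (9.22 and 32.01 CPM, 1.80, 1.12–2.55) but was most counted in endothelium, at 114 and 161 CPM (0.50, 0.34–0.66). Parp14, a mono-ADP-ribosyltransferase, was higher in epithelium (30.4 and 51.4 CPM, 0.76, 0.36–1.17), and Ifi35 was past the fold in no class.

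Interferon-inducible GTPases guard membranes against vacuolar pathogens and are mainly targets of interferon-gamma. Their sum was 3.82-fold higher in d/d epithelium (3.28–4.47), 2.43-fold in endothelium (2.33–2.54) and 1.68-fold in pericytes (1.49–1.91). The ratio was 1.24 (1.18–1.30) in stroma, 1.04 (0.85–1.27) in macrophages and 0.84 (0.73–0.97) in smooth muscle. Iigp1 was the member with the most UMIs in d/d endothelium, at 3564. Its level there was 173 f/f CPM against 749 in d/d (2.11, 2.00–2.22), and in pericytes 22.3 and 124 (2.47, 2.05–2.93). Epithelium had 7 f/f and 263 d/d UMIs (3.23 and 57.3 CPM, 4.15, 3.09–5.48), and stroma 22.1 and 44.2 CPM (1.0, 0.84–1.16), whereas macrophages had 34.8 and 36.2. Irgm1, which regulates the other immunity-related GTPases, was higher in d/d epithelium (35.96 and 177 CPM, 2.30, 1.96–2.65), endothelium (50.3 and 148, 1.56, 1.34–1.78) and stroma (22.3 and 54.1, 1.28, 1.13–1.43). Igtp was higher in endothelium (43.1 and 121 CPM, 1.48, 1.25–1.72), epithelium (18.0 and 29.8, 0.73, 0.21–1.28) and pericytes (13.8 and 21.4, 0.64, 0.04–1.28). All 3 of these immunity-related GTPases were higher in d/d endothelium and epithelium. Against luminal-like f/f epithelium alone Igtp differed by 0.26 and was not called, while Iigp1 and Irgm1 were. Irgm2 was higher in d/d epithelium (13.4 and 24.6 CPM, 0.88, 0.28–1.52) and lower in pericytes (25.7 and 16.2, -0.66, -1.17 to -0.14), the second call being lost at -0.46 under TMM scaling. In pericyte cluster 6 alone Irgm2 had 26.0 and 25.5 CPM (-0.03). The annotated spans of Igtp and Irgm2 overlap on chromosome 11, and their counts are uncertain for that reason.

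The guanylate-binding proteins followed the same endothelial lead with smaller differences. Gbp4 had 64.1 CPM in f/f and 101 in d/d endothelium (0.65, 0.44–0.86), and 0 and 2 UMIs in epithelium. Gbp7 had 80.6 and 130 CPM in endothelium (0.69, 0.51–0.88) and 8.76 and 25.7 in epithelium (1.55, 0.85–2.33), where Gbp3 had 3.23 and 12.2 (1.92, 0.78–3.30). Gbp2 was lower in d/d stroma and smooth muscle, with 21.1 and 14.0 CPM in the first (-0.59, -0.83 to -0.35) and 26.4 and 8.27 in the other (-1.68, -2.21 to -1.13). The stromal Gbp2 call was lost, at -0.48, under TMM scaling. Gbp5, with 100 and 119 UMIs in endothelium (0.24, -0.15 to 0.64), was called in no class.

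Of the 4 transcription factors, Irf1 was higher in d/d cells of all 6 classes. It encodes the activator of many interferon-gamma targets. Endothelium had 73.2 CPM in f/f and 328 in d/d (2.16, 1.99–2.33), pericytes 24.2 and 122 (2.34, 1.92–2.78) and epithelium 15.2 and 66.0 (2.12, 1.60–2.68). Macrophages had 57.6 and 186 CPM (1.69, 1.20–2.22), stroma 21.8 and 47.3 (1.12, 0.96–1.27) and smooth muscle 32.5 and 56.2 (0.79, 0.41–1.19). Irf7, the factor that amplifies type I interferon genes, was higher in macrophages (19.7 and 83.2 CPM, 2.08, 1.25–3.03) and endothelium (25.8 and 79.8, 1.63, 1.33–1.94), and less so in stroma (4.60 and 7.12, 0.63, 0.24–1.01) and epithelium (41.5 and 63.8, 0.62, 0.28–0.98). The amplifier and the gamma-type activator were thus both higher in endothelium, macrophages, stroma and epithelium, with the larger Irf7 differences in macrophages and endothelium. Irf7 in d/d epithelium differed by 2.16 against glandular-like f/f cells and by -0.15 against luminal-like ones. Stat2 had 24.9 and 48.6 CPM in epithelium (0.96, 0.53–1.42). Irf9, its partner in the ISRE-binding complex, was higher in endothelium (89.3 and 135 CPM, 0.59, 0.41–0.77) and lower in epithelium (83.9 and 55.3, -0.60, -0.88 to -0.32) and macrophages (86.3 and 56.5, -0.61, -1.12 to -0.09). Each of the 3 Irf9 calls was lost under another scaling: the epithelial one at -0.47 and the macrophage one at -0.30 under TMM, and the endothelial one at 0.54 with totals that left out mitochondrial and ribosomal genes.

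**Figure D3:**
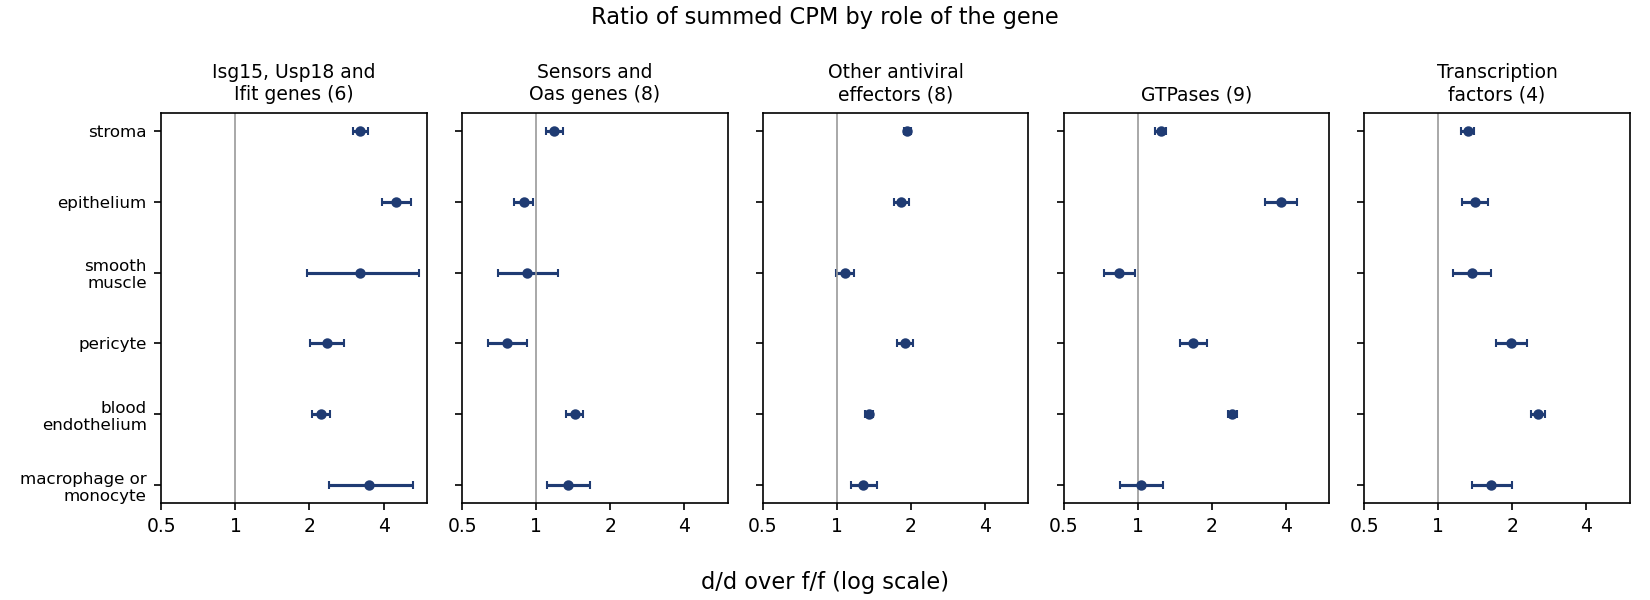
Ratio of d/d to f/f summed CPM, on a log axis, for the 5 roles of member genes in 6 cell classes, with 95% counting intervals. The ubiquitin-like modifier and IFIT genes lie above 2 in every class, while the sensors and OAS enzymes lie between 0.76 and 1.44.

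To ask whether the signal sat in few or in all cells, each cell was compared at an equal depth of 2000 UMIs, taking the average over all possible draws, and shallower cells were left out. No class can be taken to lack these genes, so no blank for free RNA was at hand. At this depth 97.8% of 448 f/f and 99.6% of 524 d/d endothelial cells had at least 1 UMI of any member. The share was 88.7% of 114 f/f and 92.2% of 244 d/d macrophages, and 77.4% of 348 and 88.7% of 1097 pericytes. It was 73.7% of 170 and 89.9% of 154 epithelial cells, 64.3% of 4477 and 76.4% of 1594 stromal cells, and 65.1% of 389 and 64.9% of 1400 smooth muscle cells. In endothelium the share was near its ceiling in both libraries, which leaves little room for a difference at this depth. The d/d minus f/f difference was 16.2 percentage points in epithelium (7.35–24.7), 12.1 in stroma (9.53–14.6) and 11.3 in pericytes (6.70–16.6). It was 1.82 in endothelium (0.32–3.73), 3.47 in macrophages (-3.04 to 11.5) and -0.23 in smooth muscle (-5.52 to 5.42), so that in macrophages and smooth muscle no difference was detectable at this depth. In the epithelium the direction depended on the f/f sub-type: the share was 58.5% of the glandular-like and 95.3% of the luminal-like f/f cells, and 90.3% and 90.2% in the d/d sub-clusters. At 4000 UMIs a cell the difference was 7.85 points in stroma, 4.29 in pericytes and 0.093 in endothelium, and at 1000 UMIs it was 7.87 in endothelium. With marked doublets kept the macrophage difference was 6.72 points (0.28–13.5). The epithelial one was then -3.59 points (-10.7 to 5.63), on 91 f/f and 144 d/d cells, after the naming rule had set aside a sub-cluster of 107 f/f cells. Those 107 cells had Spink1, Ttr and Htr1b among their leading genes, as the glandular-like cells did. Of the 91 f/f cells left, 90 lay in a sub-cluster with Lrp2 and Calb1 among its leading genes, as in the luminal-like cells. The part of this in the epithelial value was not tested. At full depth, with shallow cells included, the shares ran from 80.4% of f/f smooth muscle cells to 99.6% of f/f endothelial cells.

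Cells with at least 5 member UMIs at equal depth were more frequent in d/d in each class. In endothelium they were 47.8% of the f/f cells and 79.3% of the d/d cells, and the mean per cell was 4.77 and 8.30 member UMIs. In epithelium they were 14.4% and 29.4% with means of 2.15 and 4.03. The f/f value joined 2.34% of glandular-like cells (mean 1.05) with 31.5% of luminal-like ones (mean 3.73), and the d/d sub-clusters had 27.3% and 33.98% (means 3.67 and 4.78). For pericytes the shares were 5.41% and 21.1% with means of 1.75 and 3.03. Stroma had 2.45% and 8.26%, and smooth muscle 1.39% and 3.30%. Macrophages had 14.3% and 27.9%, although 108 of the 222 f/f cells were too shallow to enter. The f/f share was 19.7% in cluster 9, which held all d/d macrophages, and 4.66% in cluster 18. Over all kept cells of sufficient depth, 6.49% of 6371 in f/f, but 18.3% of 5463 in d/d, reached 5 member UMIs. Endothelium supplied 51.8% of those f/f cells and 41.5% of the d/d ones, though it was 7.03% and 9.59% of all such cells. Pericytes supplied 4.55% of them in f/f but 23.1% in d/d, and stroma 26.6% and 13.1%, while the share of pericytes among all cells also differed, at 5.46% and 20.1%.

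**Figure D4:**
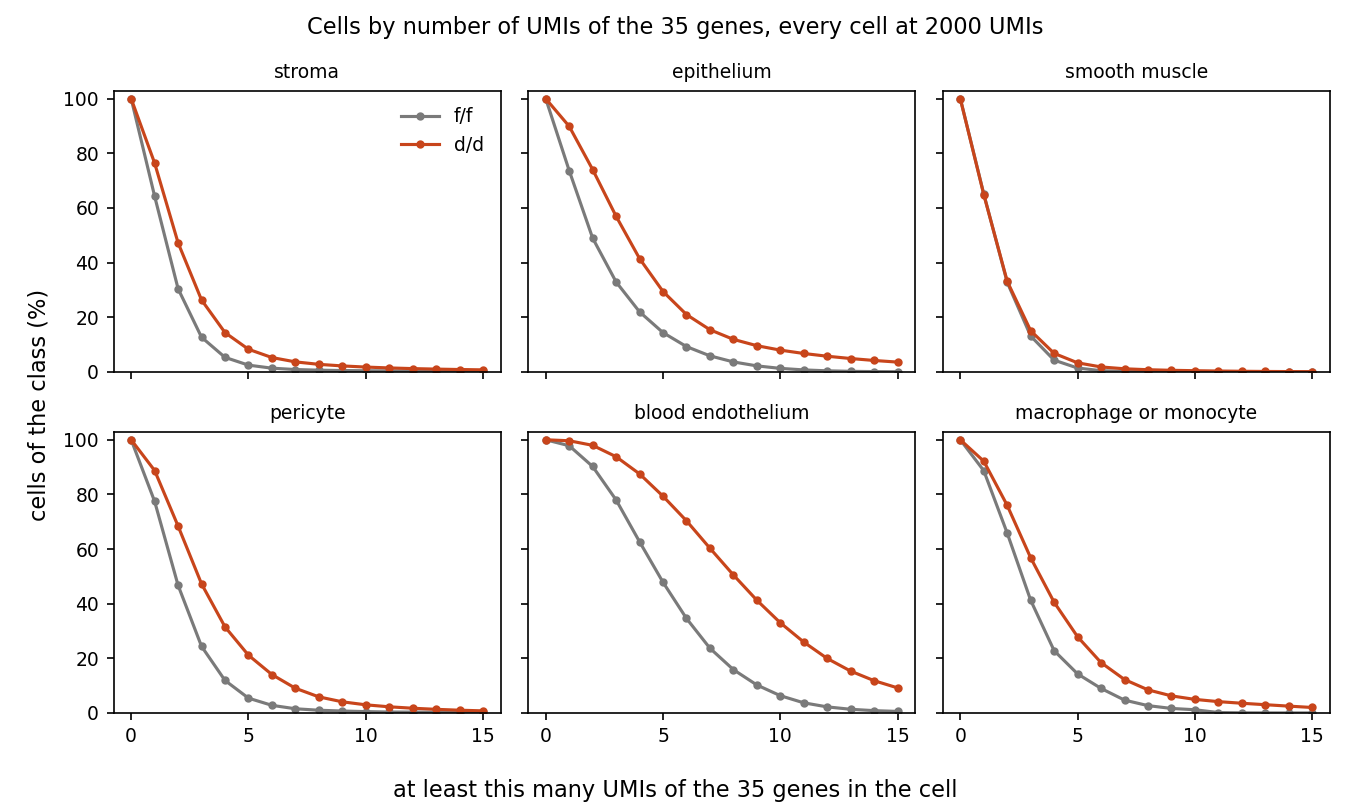
Percentage of cells holding at least a given number of member UMIs at an equal depth of 2000 UMIs a cell, for f/f (grey) and d/d (orange) in 6 cell classes. In blood endothelium the d/d curve lies well to the right (medians 4 and 8 UMIs a cell), in stroma the median is 1 UMI in both, and in smooth muscle the curves nearly coincide.

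The unevenness among cells was also measured. The Fano factor, the variance of member UMIs over their mean, which is 1 when cells differ by counting alone, was larger in d/d in all 6 classes. It was 2.46 in f/f and 4.63 in d/d epithelium, 2.05 and 3.20 in stroma, 1.58 and 3.01 in macrophages, and 1.73 and 2.74 in endothelium. Pericytes had 1.93 and 2.57, and smooth muscle 1.21 and 1.83. At an unchanged relative spread beyond counting the Fano factor rises with the mean, and the d/d mean was higher in each class. A larger value therefore does not by itself show more unevenness among d/d cells. The share of member UMIs held by the 10% of cells with most of them was 30.9% in f/f smooth muscle against 35.4% in d/d, and 27.5% against 30.5% in macrophages. In the other 4 classes the libraries differed by less, at 36.04% and 36.9% in stroma, 34.2% and 35.5% in epithelium, 31.2% and 30.3% in pericytes and 22.3% and 22.1% in endothelium. Endothelium had the lowest of these shares, and there 28.7% of the f/f cells and 29.9% of the d/d ones held 50% of the member UMIs. The mean number of different members seen per endothelial cell was 3.90 and 5.82, against 1.09 and 1.56 in stroma.

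Cells with an Isg15 UMI at equal depth show whether members were found together. They were 2.23% of f/f and 8.85% of d/d stromal cells, and 5.87% and 24.2% of epithelial cells. Stromal cells with Isg15 held 2.59 UMIs of the other 34 members in f/f and 2.75 in d/d, against 0.795 and 0.977 in cells without it. Epithelial cells with Isg15 held 3.71 and 4.97, against 1.56 and 2.32 without. The f/f epithelium joined glandular-like cells (8.91 CPM of Isg15) with luminal-like ones (88.8), and the part of that in its values was not tested. In endothelium, where Isg15 was seen in 12.1% and 25.9% of cells, the values were 4.18 and 7.82 with Isg15, and 3.59 and 6.35 without. Of these 3 classes stroma thus had the largest ratio between cells with and without Isg15 (3.26 and 2.82), and endothelium the smallest (1.16 and 1.23). The other classes had 1.22 and 4.01 (smooth muscle), 2.31 and 1.73 (pericytes) and 1.17 and 1.32 (macrophages). The 4.01 of d/d smooth muscle, the largest of all, rests on the 1.49% of cells with Isg15. Single genes were also spread in d/d endothelium, where Iigp1 was seen in 30.1% of the f/f cells and 59.9% of the d/d ones and Irf1 in 14.1% and 40.9%.

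How far the differences rest on the clusters that stand for a class was examined next. Clusters were made with all genes, members included, so these levels are a description. Blood endothelium had the firmest match, since cluster 4 held 496 f/f and 514 d/d cells. Cluster 4 alone had 2297 and 4268 CPM of the members, and 18 of 34 were higher in d/d and none lower, against 7.92% and 9.19% of all genes. In pericytes, cluster 6 (319 and 658 cells) had 848 and 1766 CPM and 10 of 29 members higher with 1 lower (8.06% and 13.2% of all genes), among them Iigp1 at 25.5 and 229 CPM and Irf1 at 22.2 and 155 CPM. Cluster 8 (62 and 541 cells) had 859 and 1289 CPM, and there Iigp1 was listed at 0 UMIs in f/f and at 16.1 CPM in d/d. In the pericytes the Iigp1 signal thus lay mostly in cluster 6. In macrophages, cluster 9 (174 and 284 cells) had 1557 and 1742 CPM, and 92.0% and 92.2% of its cells had a member UMI at equal depth. Cluster 18, with 48 f/f cells and no d/d cell, had 879 CPM, so the macrophage ratio depends on a cluster found in f/f only.

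For stroma, cluster 5, the stromal cluster with over 100 cells of both libraries (400 and 582), had 643 and 803 CPM, with 6 of 26 members higher and none lower (7.76% and 8.52% of all genes): Isg15, Oasl2, Xaf1, Irgm1, Iigp1 and Irf1. Cluster 3, with 1059 d/d cells and 2 f/f cells, had 1059 CPM in d/d, against 529 and 656 in the f/f clusters 0 and 1. With cluster 3 left out of the stroma, 8 of 34 members were higher and 3 lower (11% and 18.6% of all genes). Isg15 then differed by log2 1.43 in place of 2.36 and Bst2 by 0.62 in place of 1.08, and Ifit1 by -0.31 in place of 0.99. Cluster 5 alone gave a summed ratio of 1.25 (1.16–1.34).

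In the epithelium the f/f sub-type chosen as the reference set the size of the difference. Glandular-like f/f cells had 553 CPM of the members and luminal-like ones 1870, while the d/d sub-clusters had 2200 and 2465. The d/d to f/f ratio of the sum was 4.08 (3.77–4.43) against glandular-like cells and 1.21 (1.15–1.27) against luminal-like ones. Against glandular-like cells 27 of 33 members were higher in d/d and none lower (12.4% and 10% of all genes). Against luminal-like cells 14 were higher and 3 lower (19.2% and 10.6% of all genes), a share of higher members to be read against that larger background. Bst2, at 89.1 CPM in glandular-like and 396 in luminal-like cells, differed from the d/d level of 408 by log2 2.19 in the first and 0.04 in the second. Ddx58 (-2.57), Xaf1 (-1.26) and Irf9 (-1.08) were the members lower against luminal-like cells, Ddx58 standing at 321 CPM there and at 49.0 in glandular-like cells. Usp18, Oas1a, Bst2, Parp14, Irgm2, Igtp, Irf7 and Stat2, called higher in the whole epithelium, were called against glandular-like cells only. Isg15, Ifit1, Ifit3, Ifit3b, Oasl1, Rsad2, Cmpk2, Rtp4, Ifi44, Irgm1, Iigp1, Gbp3, Gbp7 and Irf1 were higher against both. For example Isg15 had 8.91 CPM in glandular-like, 88.8 in luminal-like and 257 in d/d cells, and Iigp1 had 5.35, 0.955 and 57.3. Oasl1 and Ifit3 were also among the 10 leading genes of the 2 d/d sub-clusters, 1 in each.

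**Figure D5:**
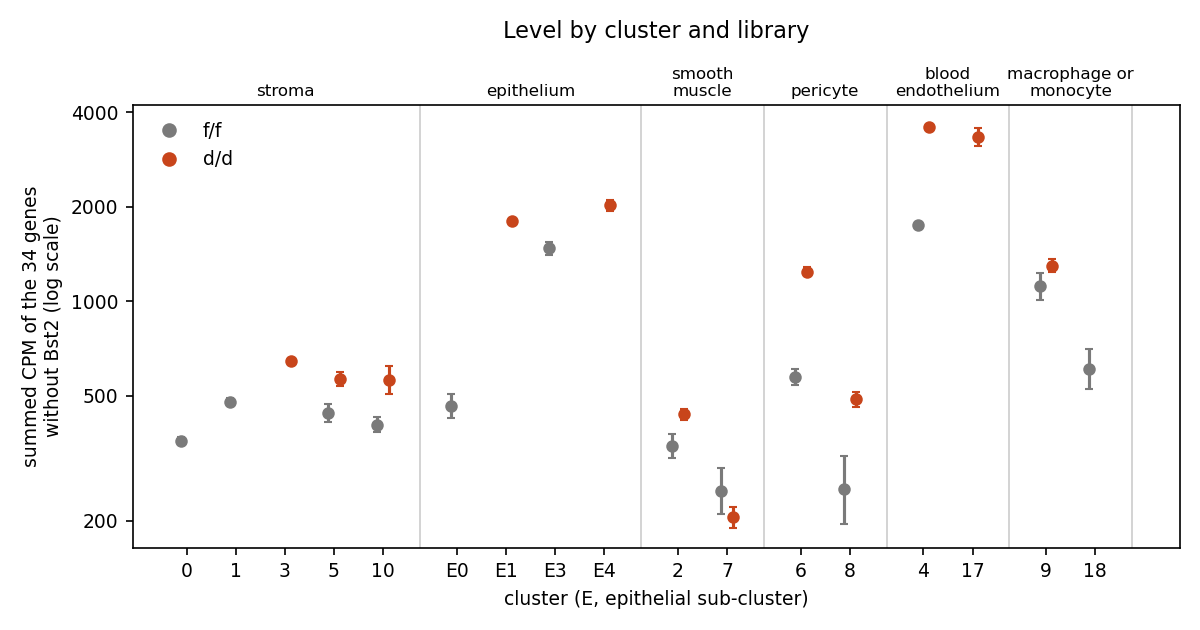
Summed CPM of the 34 members without Bst2, on a log axis, in each cluster of the 6 classes for f/f and d/d, with 95% counting intervals and a single point where the other library had few or no cells. Cluster 4 of the endothelium is high in both libraries (1755 and 3586 CPM), and the f/f epithelium is divided into a glandular-like sub-cluster (E0) at 464 and a luminal-like one (E3) at 1474 CPM.

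The ligands and receptors upstream of the members were then read. Ifnb1, the Ifna genes listed (Ifna1, Ifna2, Ifna4, Ifna5 and Ifna12), Ifnl2 and Ifnl3 had 0 UMIs in both libraries, which allows up to 3 UMIs each. Ifnab had 0 f/f and 6 d/d UMIs, Ifnk 0 and 3, and Ifnz 3 and 4. Ifne, the epithelial type I interferon of the reproductive tract, had 34 f/f UMIs and 0 d/d UMIs, 29 of them in 10 of the 73 luminal-like cells and none in glandular-like cells. In epithelium that is 13.4 CPM (8.95–19.2) in f/f, at least 20.5-fold lower in d/d against a floor of 3 counts over the class. The d/d epithelium had no cell in the luminal-like sub-cluster, and the part of that in the Ifne count was not tested. Ifng had 157 f/f and 147 d/d UMIs in all cells, mostly in natural killer or innate lymphoid cells, with 107 CPM (89.7–126) in f/f and 317 (262–380) in d/d. Those were 137 UMIs in 82 of 235 f/f cells and 117 UMIs in 29 of 77 d/d cells, a small number of cells on which the d/d level rests. T cells had 1 f/f and 24 d/d Ifng UMIs. In stroma 3 of the 6 receptor genes were higher in d/d and none lower, where 11.9% and 17.6% of all genes were: Ifnar2 (40.6 and 67.5 CPM), Ifnar1 (37.1 and 59.5) and Ifngr2 (15.4 and 23.7). Epithelium had 2 higher, smooth muscle 1, and the other 3 classes none, and no receptor gene was lower in any of the 6. The shares of all genes higher and lower given above for each class are the background for these few genes and for the lists that follow.

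Of 14 signal transducers and regulators, 3 were higher in d/d endothelium (Socs1 at 12.5 and 30.9 CPM, Irf8 at 18.6 and 43.5, and Socs3 at 321 and 590) and none lower, of 12 tested, where 8.63% and 8.7% of all genes were. The Socs proteins are feedback inhibitors of JAK kinases. Stroma had 2 higher and 3 lower of 14, epithelium 0 and 2 of 13, smooth muscle 1 and 0 of 12, pericytes 3 and 1 of 12, and macrophages 3 and 1 of 14. Jak2, a kinase of the interferon-gamma receptor, was lower in d/d epithelium (394 and 187 CPM) and higher in macrophages (25.7 and 49.9). Of 19 nucleic acid sensing genes, 17 were in the matrices, and 5 were higher and none lower of 15 tested in macrophages, against 10.3% and 8.18% of all genes. The other classes had 0 to 2 higher and 0 to 3 lower.

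A list of 57 further interferon-stimulated genes, 54 of them in the matrices, gave 17 higher and 1 lower of 42 tested in epithelium, 17 and 1 of 50 in endothelium, 11 and 4 of 50 in stroma and 11 and 2 of 45 in macrophages. Pericytes had 2 higher and 8 lower of 42, and smooth muscle 2 and 5 of 37. The shares of all genes higher and lower were 11.9% and 14.7% in epithelium, 8.63% and 8.7% in endothelium, 11.9% and 17.6% in stroma, 10.3% and 8.18% in macrophages, 10.6% and 14.5% in pericytes and 8.96% and 7.09% in smooth muscle. The list's median log2 difference was 0.41 in epithelium, 0.32 in endothelium and 0.26 in macrophages, but -0.11 in stroma, -0.18 in smooth muscle and -0.26 in pericytes, the last 3 near the medians of all genes. The stromal sum of the list was 3076 CPM in f/f against 2953 in d/d. Cxcl10, a chemokine that draws T and natural killer cells, was higher in all 6, for example at 1.38 and 80.1 CPM in epithelium, 40.9 and 267 in macrophages and 19.9 and 85.7 in endothelium. In pericytes Ifi27l2a (345 and 149 CPM), Psmb9 (33.7 and 12.5) and Ly6e (134 and 63.1) were lower. In endothelium the GTPases Tgtp1 (5.71 and 29.6 CPM) and Tgtp2 (6.56 and 24.6), near-identical copies whose counts are uncertain, were higher.

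Immediate early and heat shock genes, which respond to dissociation and other stress, also differed between the libraries. Of 20 such genes 19 were higher in d/d stroma and endothelium, 18 in pericytes, 15 in smooth muscle and macrophages, and 5 in epithelium, where 4 were lower. Their stromal sum was 3656 CPM in f/f against 14085 in d/d, beside 7859 and 25361 in pericytes, 8344 and 25013 in endothelium, and 12395 and 17190 in epithelium. Smooth muscle, with little difference in the members, had 7913 and 17053 CPM, and macrophages 9657 and 24712. The part of this difference in the levels of Irf1 and the other members was not tested.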

How the data were processed

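The authors deposited gene-by-cell matrices of UMI counts for 1 Mettl14 f/f and 1 Mettl14 d/d library of whole uterus on gestational day 4. The submitters' processing notes name Cell Ranger 3.0.1 and mm10, while the file headers name cellranger 6.0.1, and the difference could not be settled. How reads that fit several genes were counted is not given in the sources used here.

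Cells with at least 1000 UMIs, 500 genes and at most 20% mitochondrial UMIs were kept. Doublets were marked as the top Scrublet scores at 0.8% per 1000 cells (533 f/f and 355 d/d); the automatic caller marked 0 and 400. The libraries shared 8 barcodes. The 2000 most variable genes, 30 components, 15 neighbours and Leiden at resolution 1 (0.5 within the epithelium) were used for both libraries together (scanpy 1.11.5, leidenalg 0.10.2). A cluster took the class with the highest mean marker log2 fold over the median cluster, at least 1, with at least 3 markers detected and no other class with more markers among its 10 leading genes. Clusters 10 (stroma) and 11 (dendritic cells) had none of their own markers among those 10. UMIs were summed per library and class, divided by the class total (CPM) and given with exact Poisson intervals, conditional exact intervals for ratios and Clopper-Pearson intervals for shares. Equal depth means the average over all draws of 2000 UMIs from a cell, with intervals at the expected counts. A 3′ count is not scaled to gene length. TMM factors came from edgeR 4.0.16. The scripts were tested on simulated data.

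The members and lists were chosen with earlier results of these data known. All 35 members are named, and of the other lists up to 4 genes per class and direction, ranked by the interval bound nearest 0. Clustering was run with z-scaled genes first and unscaled genes after, a naming rule that left d/d stromal cluster 3 without a name was tried and dropped, the rule for epithelial sub-clusters was changed, and single draws were replaced by their average, all after member values had been seen. Those settings appear among the alternatives. The comparison was set for 6 classes. Other classes had under 100 cells in a library, except dendritic cells. No paired analysis was possible because there is 1 library per genotype.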

Additional observations from a re-analysis of the deposited data

Results flagged for a closer look

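Irgm2 and Irf9 were called in opposite directions in different cell classes, and the difference between classes was not tested. The log2 difference of Irgm2, d/d over f/f, was 0.88 in epithelium (13.4 and 24.6 CPM) and -0.66 in pericytes (25.7 and 16.2 CPM). For Irf9 it was 0.59 in blood endothelium (89.3 and 135 CPM), -0.60 in epithelium (83.9 and 55.3 CPM) and -0.61 in macrophages or monocytes (86.3 and 56.5 CPM). The lower calls of both genes were lost under TMM scaling. They also depended on the cells compared. In pericyte cluster 6 alone Irgm2 had 26.0 and 25.5 CPM (-0.03). In epithelium Irf9 differed by 0.05 against glandular-like f/f cells and by -1.08 against luminal-like ones.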

How the results depend on the processing

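Over 18 results, 113 alternative values stayed within the counting interval or, for counts of members, within 1.5 times the reported value, 36 moved further and 1, outside its interval, changed direction. The d/d to f/f ratio of summed members stayed above 1 under all settings run. Under TMM scaling the ratio was 2.09 in epithelium, 2.08 in pericytes, 1.90 in blood endothelium, 1.82 in stroma, 1.74 in macrophages or monocytes and 1.19 in smooth muscle. With totals that left out mitochondrial and ribosomal genes it was 2.19 in epithelium, 1.78 in endothelium and 1.29 in macrophages. Without Bst2 it was 1.51 in stroma, 1.63 in pericytes and 2.04 in endothelium. With marked doublets kept it was 1.32 in epithelium, 1.18 in smooth muscle, 1.90 in endothelium and 1.59 in macrophages, and with a minimum of 2000 UMIs 1.58 in macrophages. For that epithelial value 90 of the 91 f/f cells lay in a sub-cluster that shared leading genes with the luminal-like cells. By cluster the ratio was 1.41 in stroma without cluster 3, 1.25 in cluster 5, 2.08 in cluster 6, and in epithelium 4.08 and 1.21 against glandular-like and luminal-like cells and 2.12 with all sub-clusters.

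At a 2-fold threshold 14 members were higher in epithelium and 3 in smooth muscle. With at least 20 UMIs in place of 50, 9 were higher in smooth muscle and 11 in macrophages, and under TMM 13 in macrophages. The difference in cells with a member UMI was 7.85, 4.29 and 0.093 points in stroma, pericytes and endothelium at 4000 UMIs, and 7.87 in endothelium at 1000. Without Bst2 it was 8.37 in stroma and 4.19 in endothelium. In stroma it was 8.16 without cluster 3 and 4.04 (-2.27 to 10.6) in cluster 5. With marked doublets kept it was -3.59 (-10.7 to 5.63) in epithelium, where the naming rule left out a sub-cluster of 107 f/f cells that shared leading genes with the glandular-like cells. In smooth muscle the difference of -0.23, whose interval spans 0, was 1.03 at 1000 UMIs, 0.63 with marked doublets kept and 4.07 with a single random draw per cell, within that interval but of the other sign. The cause of the other moves was not tested. Separate clustering of the libraries, members left out of clustering, z-scaled clustering and a single random draw per cell moved no result they were run on beyond its interval or, for counts of members, 1.5 times. The alternatives by cluster, the last 3 of these settings and the all-sub-cluster setting were chosen after seeing the data. The median log2 ratio of all genes was -0.32 in macrophages and -0.22 in pericytes before TMM scaling and -0.01 in both after it. Depth limits the f/f macrophages most, at a median of 2014 UMIs. No paired analysis was possible because there is 1 library per genotype.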

Other observations

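Cell classes outside the 6 compared are given here by their summed member levels. Natural killer or innate lymphoid cells had 668 CPM in 235 f/f cells and 823 CPM in 77 d/d cells. T cells had 963 CPM in 215 d/d cells, and lymphatic endothelium 1253 CPM (81 f/f cells) and 1480 CPM (61 d/d cells). Mesothelium-like cells, of which f/f had 36 but d/d none, had 1729 CPM. Endothelial cluster 17, with 90 d/d cells and 1 f/f cell, had 3515 CPM of the members in d/d and 757 CPM of Iigp1, near the 748 CPM of endothelial cluster 4.

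Dendritic cells, whose number passed 100 in both libraries, had 817 CPM in 177 f/f cells and 1353 CPM in 174 d/d cells, a d/d to f/f ratio of 1.66 (1.49–1.85). At equal depth 78.0% of the f/f and 77.7% of the d/d dendritic cells had a member UMI. Oasl1 had 0 CPM in the f/f and 65.3 CPM in the d/d cells of this cluster, and Isg15 had 8.39 and 84.6 CPM.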
